A study of Arabidopsis thaliana with 4 samples.

Results

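Calmodulin-like (CML) proteins are plant relatives of calmodulin. They bind calcium through EF-hand loops, have no enzyme activity of their own, and pass a calcium signal on by binding other proteins. In Arabidopsis leaves many CML genes are known as fast, transient responders to wounding, touch, pathogens, herbivores and low oxygen, and some act in immunity or in the closing of plasmodesmata.

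The 8 genes described here are CML23, CML30, CML37, CML38, CML41, CML42, CML43 and AT3G01830, which is also called CML40. They were taken by name, each from the probe set whose single annotated gene it is, out of 13513 probe sets with 1 annotated gene. The group was chosen from DEX-against-mock values of these same arrays, so the differences between DEX and mock of the 8 genes are a description, and no test of them supports anything. All 8 passed the filter on dim probe sets, which asked for a log2 value of at least 4 on at least 2 arrays. All 8 probe set identifiers have the plain ending that Affymetrix gives to sets designed for a single transcript or gene. RefSeq attaches the synonym CML39 to CML37 as well as to AT1G76640, and the locus of CML37 here is AT5G42380.

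The study asked which genes respond when ORS1, a NAC transcription factor of leaf senescence, is switched on. Soil-grown plants of the C24 background carrying an inducible ORS1 overexpression construct were sprayed at 46 days of age with 30 µM dexamethasone (DEX), the steroid inducer, or with 0.05% ethanol as the mock. Whole rosettes were taken 5 h later, and RNA of 2 biological replicates per group was measured on Affymetrix ATH1 arrays. The mock plants carry the construct too, no plants without it were measured, and neither the driving promoter, the number of independent lines nor the plants behind each replicate are given in the labels. A response to DEX itself therefore cannot be told apart from a response to ORS1. In RNA of whole rosettes, a change in the share of a cell type and a change in RNA per cell cannot be told apart either.

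Of 16 leaf genes of photosynthesis taken as tissue markers, 6 were tested, and their log2 values lay between 11.48 and 13.42 on every array. Of 16 markers of root, flower, seed and guard cell, 2 were tested, EXPA7 of root hairs and FAMA of guard cells, at 5.72 to 6.78. FAMA read 5.97 and 6.26 after DEX and 6.78 and 6.39 after mock, so that the groups were separate, with a difference of -0.47 ± 0.19 (SE) that did not pass (limma adjusted p = 0.511). The part of guard cells in the results below was not tested. The probe set of ORS1 was not analysed here. Each value is a log2 expression value, so a difference of 1 is 2-fold, and the array number, 2 per group, limits the precision. Values of different genes are not compared with each other, because probe sets differ in how brightly they bind.

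All 8 genes had a higher mean after DEX than after mock, where 47.2% of the 19883 tested probe sets did. The differences ran from 0.15 for CML43 to 1.46 for CML41, with a median of 0.49, against a median of -0.012 over all tested probe sets. On 5 genes both DEX arrays lay above both mock arrays, which was the case for 18.1% of all tested probe sets, and on CML42, CML38 and CML43 the groups overlapped. In the limma fit over all probe sets, 2 of the 8, AT3G01830 and CML37, had an adjusted p under 0.05 as higher, a call made for 0.246% of all tested probe sets. The contrast behind these counts is the one the genes were chosen from, so nothing is read from them.

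**Figure D1:**
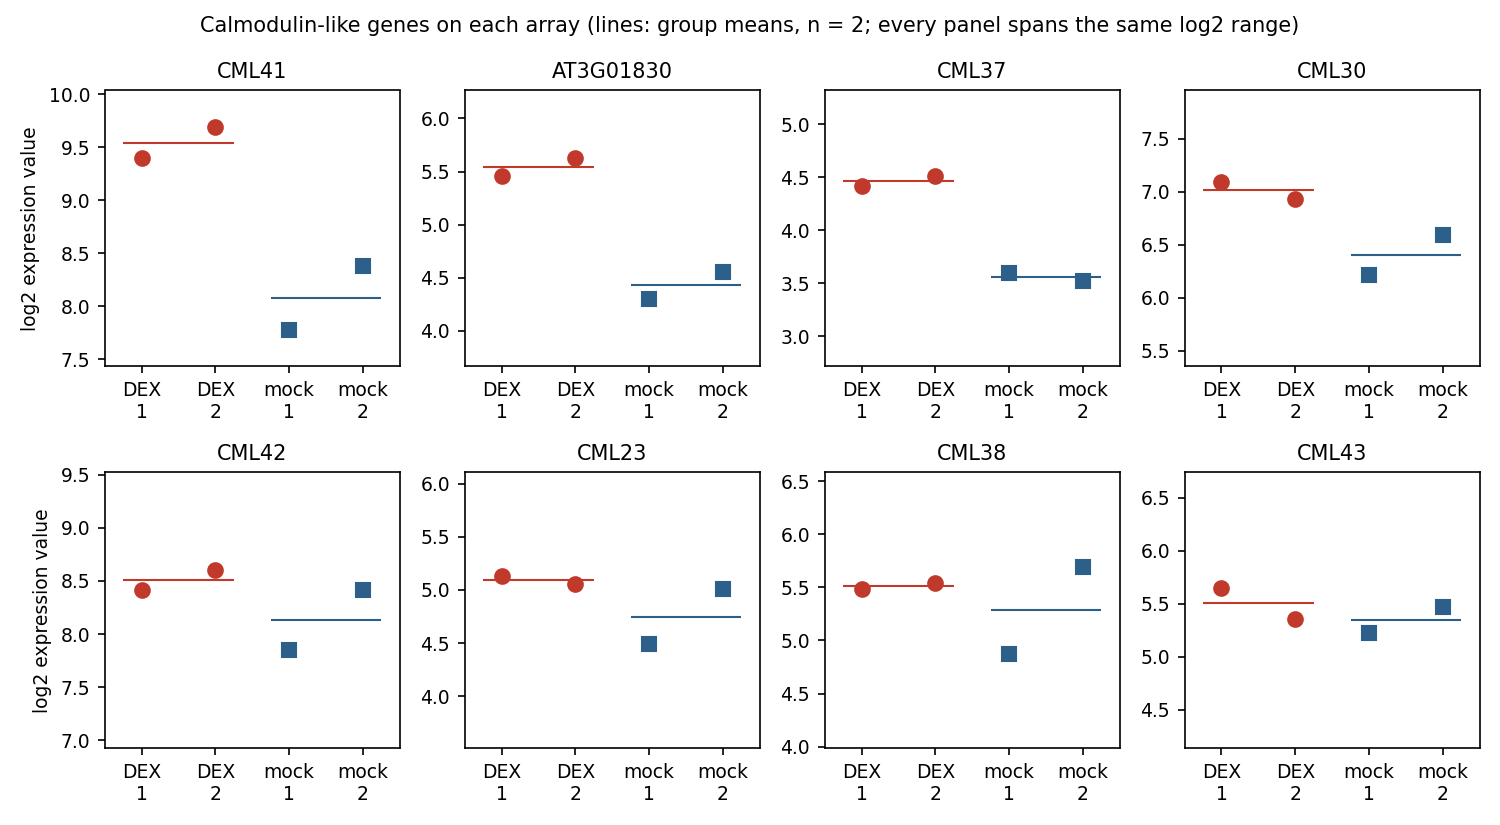
Log2 expression value (vertical axis) of each of the 8 genes on the 4 arrays (horizontal axis), with DEX arrays as circles, mock arrays as squares and the mean of each pair as a line. CML41, AT3G01830 and CML37 show a gap of at least 0.82 between the lowest DEX and the highest mock value, while CML42, CML38 and CML43 overlap.

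CML41, whose product sits at plasmodesmata and promotes callose closure of these pores during immune signalling, had the largest difference of the 8. Its log2 values were 9.39 and 9.69 after DEX and 7.77 and 8.38 after mock, for replicates 1 and 2. Both DEX arrays were above both mock arrays by at least 1.01. The means were 9.54 ± 0.21 (SD, n = 2) and 8.08 ± 0.43, a 2.76-fold difference that ranked 26 of 19883 by size of rise. The mock pair was nevertheless uneven, and in the fit over all probe sets the difference of 1.46 ± 0.25 (SE) had a limma adjusted p of 0.0598.

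AT3G01830 read 5.46 and 5.63 after DEX and 4.30 and 4.55 after mock. The groups were separate, with a gap of 0.91, and each pair was closer together than for CML41. Its mock values are near the filter level of 4, which limits what their spread can show. The difference was 1.11 ± 0.14 (SE), or 2.16-fold, with SDs of 0.12 after DEX and 0.18 after mock (n = 2). It ranked 79 of 19883.

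CML37, a gene known for induction by wounding, herbivory and drought, read 4.41 and 4.51 after DEX. On the mock arrays it read 3.597 and 3.523. Both mock values lay under the filter level of 4, where GCRMA, the authors' normalization, compresses differences, so the gene passed the filter only through its DEX arrays. The difference was 0.90 ± 0.11 (SE), or 1.87-fold. The mock SD was 0.053, measured at that dim level, and CML37 was the 1 gene of the 8 with a lower value on mock replicate 2 than on mock replicate 1.

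CML30, whose protein is found in mitochondria, read 7.09 and 6.94 after DEX and 6.22 and 6.59 after mock. The groups were separate by 0.34. The difference was 0.61 ± 0.18 (SE), or 1.52-fold, and ranked 524 of 19883.

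The remaining genes had smaller differences, from 0.15 to 0.37, and in each the mock arrays differed from each other by more than the group means did. CML42, which acts in trichome branching and restrains defence against herbivores, read 8.41 and 8.60 after DEX and 7.85 and 8.41 after mock. Its DEX replicate 1 and mock replicate 2 were thus level, the former minus the latter being -0.0024. CML43, the closest relative of CML42 and known for a part in pathogen defence, read 5.65 and 5.35 after DEX and 5.23 and 5.47 after mock. Each of its groups had a value inside the range of the other.

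CML23, which with its relative CML24 acts in nitric oxide levels and flowering time, read 5.13 and 5.05 after DEX. Its mock arrays read 4.49 and 5.01, so that the groups were separate by just 0.043. The lower mock value of CML23 is near the filter level of 4, which limits its difference. CML38, which is induced by low oxygen and forms cytoplasmic granules under it, read 5.48 and 5.54 after DEX and 4.88 and 5.69 after mock. Mock replicate 2 was its highest array and mock replicate 1 its lowest, and the mock SD of 0.58 was the largest of the 8.

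For 4 of the 8 genes the difference depended on which mock array was used, by a measure relative to the size of the difference. Against mock replicate 1 alone the mean of the DEX arrays was higher for 8 of 8 genes, with a median difference of 0.73. Against mock replicate 2 alone it was higher for 7 of 8, with a median of 0.26, while the medians over all tested probe sets were -0.033 and 0.0057. A gene was counted as dependent on an array where leaving it out turned the sign of the log2 difference, ended a call, or moved the difference by over 1.5 times. By this measure CML42, CML23, CML38 and CML43 depended on mock replicate 1, and CML41, AT3G01830, CML37 and CML30 did not. The measure is mostly a ratio, so a large difference can pass it though its mock arrays are far apart. In log2 units the mock arrays of CML41 differed by 0.61, more than those of CML42 (0.56), CML23 (0.52) and CML43 (0.25). Against mock replicates 1 and 2 alone, CML41 was at 1.77 and 1.16. For CML37 both mock values lay under the filter level, and mock replicate 2 minus mock replicate 1 was -0.074. Whether the dim level kept them close was not tested.

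Without mock replicate 1 the difference of CML42 went from 0.37 to 0.092 and that of CML23 from 0.34 to 0.081. The difference of CML38 turned from 0.23 to -0.18, and that of CML43 shrank from 0.15 to 0.029. CML30 kept 0.42 of its 0.61, a change of 1.44 times, close to the limit. CML41 was then at 1.16, AT3G01830 at 0.99 and CML37 at 0.94.

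The same 4 genes also moved by over 1.5 times without mock replicate 2, in the other direction: CML42 to 0.66, CML23 to 0.60, CML38 to 0.64 and CML43 to 0.28. With 2 mock arrays, leaving out each in turn moves the difference by equal and opposite amounts, so that direction was fixed in advance. Leaving out a DEX array moved 1 gene past that limit. CML43 went to 0.0035 without DEX replicate 1 and to 0.30 without DEX replicate 2. Between arrays of the same replicate number, CML38 and CML43 were at -0.15 and -0.12 in replicate 2 against 0.61 and 0.43 in replicate 1. Whether arrays of the same number belong together is not known.

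**Figure D2:**
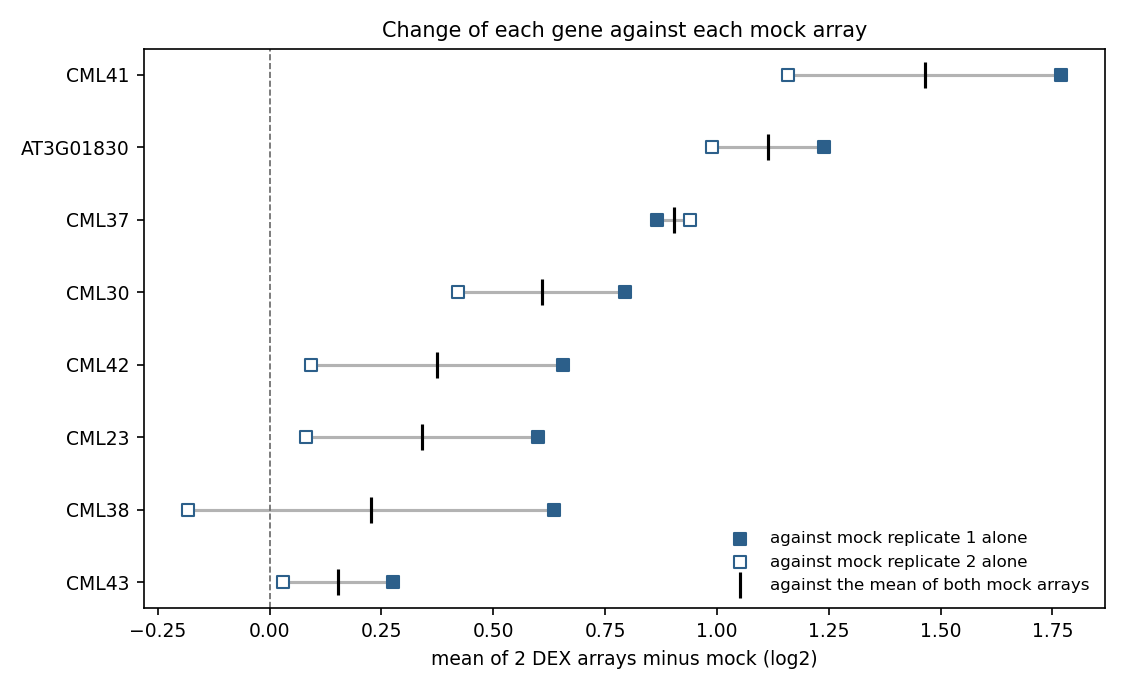
Log2 difference of the mean of the 2 DEX arrays to mock (horizontal axis) for each gene, taken against mock replicate 1 alone (filled squares), mock replicate 2 alone (open squares) and the mean of both (black ticks). CML42, CML23 and CML43 lie within 0.1 of 0 against mock replicate 2, CML38 is at -0.18, and the squares of CML37, whose mock values are under the filter level of 4, lie close together.

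The mock arrays also differed across the genome in a way that followed gene length, and most CML genes are short. The gene spans of the 8 ran from 647 bases for CML30 to 3240 bases for AT3G01830, with a median of 995 bases, against 2202 bases for the tested nuclear genes with a length. In 5 equal groups of those 11284 genes by length, the median of mock replicate 2 minus mock replicate 1 was 0.25 for the shortest genes and -0.27 for the longest. CML41, CML30, CML42, CML23 and CML43 fell in the shortest group, CML37 and CML38 in the next, and AT3G01830 in the second longest. In the shortest group the median difference of DEX to mock was 0.10, and 28.1% of genes had both DEX arrays above both mock arrays.

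On 7 of the 8 genes mock replicate 2 was above mock replicate 1, where 45.6% of all tested probe sets had that order. The difference between the mock arrays was 0.82 for CML38, 0.61 for CML41, 0.56 for CML42 and 0.52 for CML23. A smooth curve of that difference on gene length gave 0.26 for a gene of the length of CML38 and 0.35 for each of the other 3. For AT3G01830 the curve gave -0.18 where 0.25 was measured, and for CML37 it gave 0.27 where -0.074 was measured. The part of gene length in the results was not tested.

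**Figure D3:**
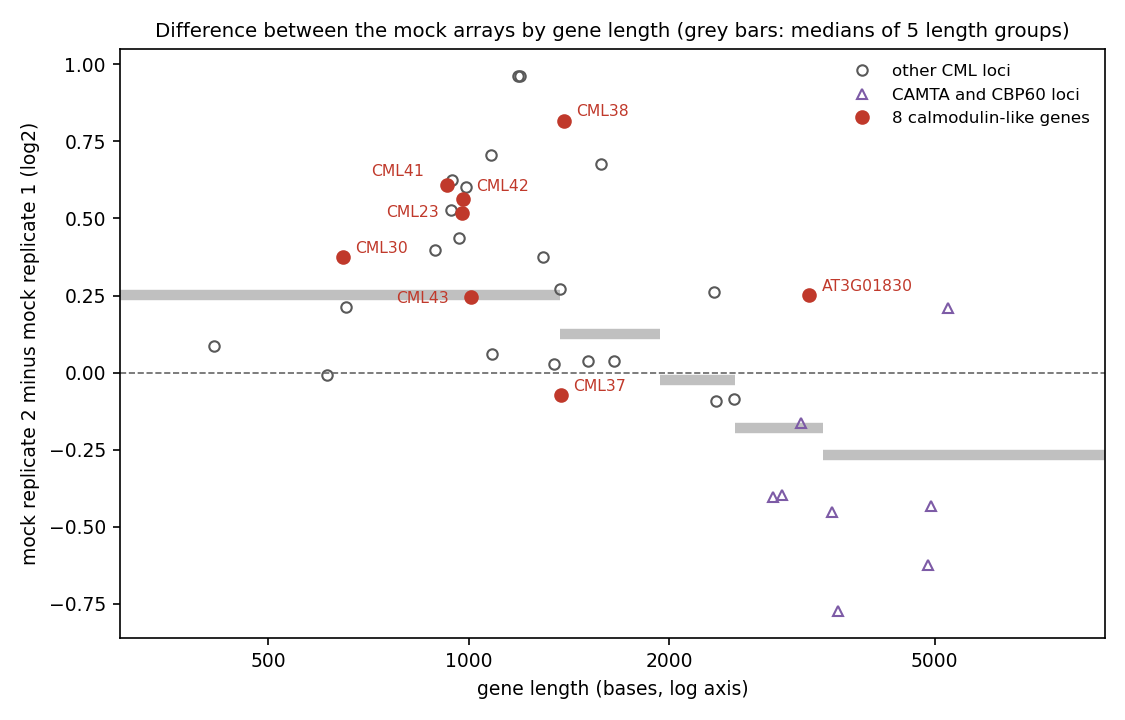
Log2 difference of mock replicate 2 to mock replicate 1 (vertical axis) against gene length in bases (log axis), for the 8 genes (filled circles), other CML loci with a length (open circles) and CAMTA and CBP60 loci (triangles). Grey bars are medians of 5 equal groups of 11284 genes by length, falling from 0.25 to -0.27, and 7 of the 8 genes lie above 0.

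With the length trend of each array removed, the differences of the short genes shrank and that of AT3G01830 grew. CML41 was then at 1.29, AT3G01830 at 1.19, CML37 at 0.78 and CML30 at 0.41. CML42, CML23 and CML38 were at 0.21, 0.17 and 0.10, and CML43 was at -0.015. In that fit over 11284 genes the limma adjusted p was 0.00568 for CML41, 0.00757 for AT3G01830 and 0.0701 for CML37, so that a different pair of genes was under 0.05 than before the removal.

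The other genes of calcium signalling were taken from lists of loci by family, not picked for how they moved. The lists held 172 loci, of which 42 had a probe set with 1 annotated gene and 35 were tested. In the limma fit over all probe sets, 0 of the 35 passed at an adjusted p under 0.05 in either direction, where 0.246% of all probe sets passed as higher and 0.201% as lower. At an unadjusted p under 0.05 there were 6 of the 35, and 8.78% of all tested probe sets. No calcium-dependent protein kinase (34 loci), no CBL calcium sensor or CIPK kinase (36 loci) and none of the 7 calmodulin genes proper had a probe set with 1 gene in the annotation used here, so these were not analysed here.

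Of the calmodulin and other CML loci, 48 in all, 22 were tested, and 20 of the 22 had a higher mean after DEX, against 47.2% of all tested probe sets. Their median difference was 0.19, with a range of -0.062 to 0.93. On 11 of the 22 both DEX arrays lay above both mock arrays, against 18.1% of all tested probe sets, on 0 the reverse held, against 19.8%, and on the other 11 the groups overlapped. The other CML loci are short as well, with a median of 1186 bases, and 18 of the 22 were higher on mock replicate 2 than on mock replicate 1, by a median of 0.27. Against mock replicate 2 alone their median difference was 0.10, and 16 of 22 were higher after DEX.

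AT3G47480 had the largest difference of these loci. It read 8.40 and 8.54 after DEX and 7.19 and 7.90 after mock, a difference of 0.93 ± 0.25 (SE) that did not pass (limma adjusted p = 0.245). AT5G39670 read 8.54 and 8.57 after DEX and 7.54 and 7.93 after mock, and its 0.82 ± 0.21 did not pass either (limma adjusted p = 0.202). AT1G21550 read 7.51 on both DEX arrays and 6.47 and 7.07 after mock (0.73 ± 0.22; limma adjusted p = 0.308). In each of these loci the groups were separate, and against mock replicate 2 alone the differences were 0.58, 0.62 and 0.43.

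AT1G76640, for which RefSeq gives the synonym CML39 and which lies next to CML38 on the chromosome, had values close to each other on all 4 arrays. It read 4.75 and 4.57 after DEX and 4.54 and 4.53 after mock, a difference of 0.13 ± 0.12 (SE; limma adjusted p = 0.839). Mock replicate 2 minus mock replicate 1, at 0.82 for CML38, was -0.0085 for this neighbour. The values of AT1G76640 are near the filter level of 4, which limits this comparison. Of the 16 protein-coding genes directly beside the 8 genes, 10 were tested. A higher mean after DEX was found for 3 of the 10, against 47.2% of all tested probe sets. Of the 10, 0 passed (limma), where 0.246% of all tested probe sets passed as higher and 0.201% as lower. The gene beside CML23 on its other side is the calmodulin gene CAM4, which was not analysed here.

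The loci listed for calmodulin-binding transcription factors, the CAMTA and CBP60 families, mostly had lower means after DEX. Of 14 loci 8 were tested, and 7 of the 8 had a lower mean after DEX, with a median of -0.19. Over all tested probe sets 47.2% had a higher mean after DEX. On 4 of the 8 both mock arrays lay above both DEX arrays, against 19.8% of all tested probe sets, and 0 passed (limma; 1 at an unadjusted p under 0.05). The largest differences were those of AT2G18750 (-0.56 ± 0.24, SE), AT3G16940 (-0.50 ± 0.23) and AT1G67310 (-0.40 ± 0.20), with limma adjusted p-values of 0.557, 0.600 and 0.651. These genes are long, with a median of 3541 bases, and on the list mock replicate 2 was lower than mock replicate 1 by a median log2 difference of -0.42, so the mock arrays differed on them in the opposite direction to the CML genes. Against mock replicate 2 alone AT2G18750, AT3G16940 and AT1G67310 were at -0.17, -0.18 and -0.18, and 3 of the 8 loci were higher after DEX. AT4G31000, chosen here after its values were seen, was the 1 locus of the list with a higher mean after DEX (0.33 ± 0.17, SE; limma adjusted p = 0.634), and it stood at 0.53 against mock replicate 2 alone.

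Of 40 loci for calcium channels, pumps and exchangers 5 were tested, all of them glutamate receptor-like (GLR) channel genes, and 0 passed (limma; 0 at an unadjusted p under 0.05). Their differences ran from -0.092 for GLR3.3, a channel of wound signalling between leaves, to 0.16 for GLR2.8, with a median of -0.014. GLR2.7 was at 0.087 ± 0.13 (SE). On all 5 the groups overlapped.

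**Figure D4:**
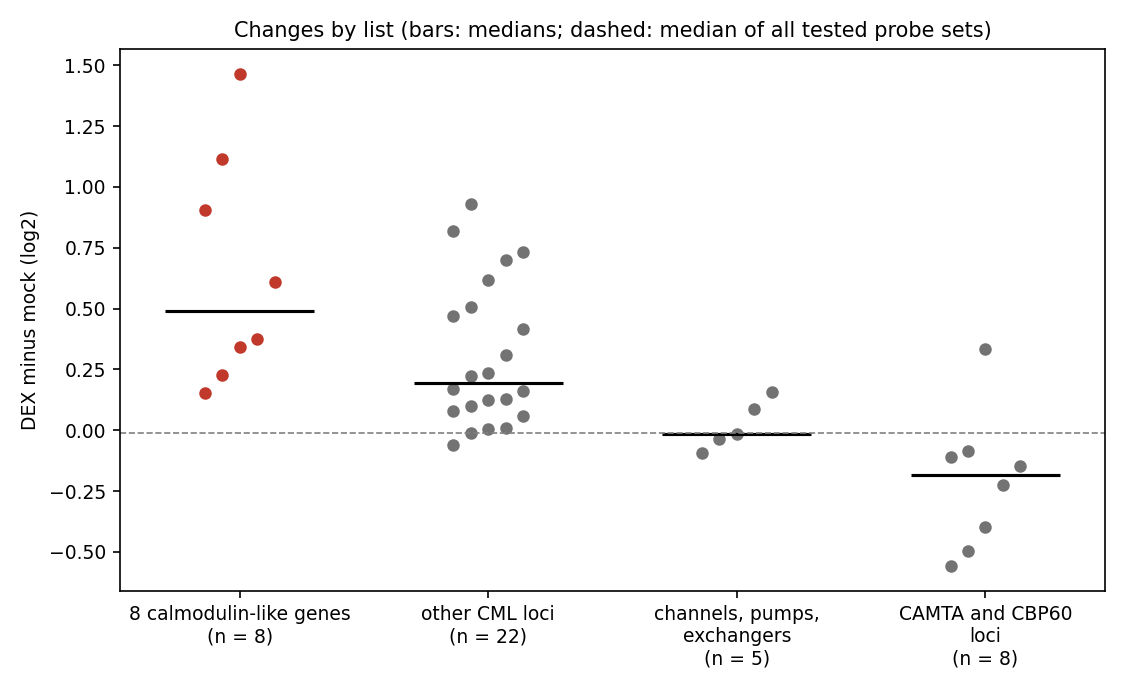
Log2 difference of DEX to mock (vertical axis) for the 8 calmodulin-like genes and for 3 lists of other calcium genes, 1 point per gene, with list medians as bars and the median of all tested probe sets dashed. The medians are 0.49, 0.19, -0.014 and -0.19 from left to right, and the 8 genes were chosen from this same contrast.

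The mean profile of the 8 genes over the 4 arrays, each gene taken relative to its own mean, was 0.31 and 0.34 after DEX and -0.53 and -0.12 after mock. Among other tested probe sets with 1 gene, the 5 nearest to that profile by Euclidean distance over the 4 arrays were AT1G15010 (0.035), AT3G13230 (0.068), AT3G05560 (0.084), AT2G23680 (0.084) and AT3G26470 (0.087). AT1G15010 read 6.18 and 6.20 after DEX and 5.37 and 5.78 after mock. None of the 5 passed in the fit over all probe sets, with limma adjusted p-values from 0.251 to 0.432. Because the 5 were picked for nearness to a mean that is low on mock replicate 1, sharing that low value was fixed in advance. The mean is also not the profile of each of the 8, as CML37 was lower on mock replicate 2. With 4 arrays there is little to tell one such profile from another.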

How the data were processed

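The values are log2 expression values as the authors deposited them, for every probe set on every array. GCRMA is named by the submitters' processing notes, without version or settings in the sources used here; the log2 scale was read from that and from the range of 2.59 to 13.62. No further normalization was applied. Of 22810 probe sets, 64 controls and 2863 dim ones (fewer than 2 arrays at 4 or more) were left out. The other 19883 entered 1 fit with limma 3.58.1 under R 4.3.3 (intensity trend, two-sided, no covariate, 2 residual degrees of freedom), with Benjamini-Hochberg adjustment over all of them. An exact permutation test of 2 against 2 arrays cannot go below p = 0.333, so none was used. The limma p-values and the SEs rest on a moderated variance, not on the spread of 1 probe set alone. It blends a probe set's own spread between these samples, which the labels call biological replicates, with that usual at its intensity. The test was tried on simulated data.

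Genes were named through the platform annotation and RefSeq (TAIR10.1), which also gave gene spans and neighbours; no coordinates are printed. Of several probe sets of a gene, the brightest on average was used. The genes and lists were chosen with earlier results of these data known. Named were all 8 genes, the 3 largest differences of each calcium list, any called list gene, and the 5 nearest profiles; the genes beside the 8 were added later. The length trend was a loess curve (span 0.5) of each array's deviation from the mean on log2 gene span. Protein and promoter features were not analysed here.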

Additional observations from a re-analysis of the deposited data

How the results depend on the processing

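The 49 higher and 40 lower calls over all probe sets became 0 and 0 when the variance was not moderated, 27 and 24 when it had no intensity trend, 107 and 81 when the threshold was 0.1, and 80 higher with robust empirical Bayes. Among genes with a length and the trend kept they were 15 and 9 (fewer genes tested), on the same genes with the trend removed 71 and 52, and without mock replicate 1 as well 101 and 76. The first and last of these were chosen after seeing the data. Leaving out 1 array gave 112 to 1803 higher and 50 to 1388 lower, the most without mock replicate 2. For the 35 other calcium genes, leaving out 1 array gave 0 to 9 higher and 0 to 3 lower; the 9 and 3 came without mock replicate 2, where the mock group is 1 array assumed to vary like the DEX pair. The replicate numbers share a name only: the deviations of same-numbered arrays correlated at r = 0.108 over probe sets, and 2 pairs cannot settle pairing. With a replicate block 438 of 19883 probe sets passed as higher and 237 as lower. Of the 35, 4 passed as higher (AT3G47480, AT5G39670, AT1G21550, AT3G03000) and 1 as lower (AT2G18750). Every other setting with all 4 arrays gave 0 and 0 for those of the 35 it tested.

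CML38 was at 0.64 without mock replicate 2. It turned to -0.18 without mock replicate 1, and to -0.17 with the length trend removed as well. CML43 turned to -0.015 with the trend removed, a value that was not called. AT3G01830 and CML37 missed 0.05 without an intensity trend (limma adjusted p = 0.0752 and 0.0926) and with an unmoderated variance (0.73 and 0.704), and CML37 also with the length trend removed (0.0701). CML41 was under 0.05 in 7 of 17 alternatives, from 9.76e-07 with a replicate block to 0.763 with an unmoderated variance, and passed at the 0.1 threshold too. Without mock replicate 2, CML41 was at 1.77, CML30 at 0.80, CML42 at 0.66 and CML23 at 0.60. CML37 was not tested with a filter at 5. The promoter motif and EF-hand searches were not run. Both mock values of CML37 were dim, which limits its difference.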
